A study of Mus musculus with 16 samples.

Results

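The data describe how the liver response to pirinixic acid (the WY compound of the labels, here Wy) differed between mice on 30% calorie restriction (CR) and mice on a control diet (C). Liver RNA of male C57BL/6J mice was measured on Affymetrix Mouse Gene 1.1 ST arrays, 1 array per mouse. The CR and C mice account for 8 of the 16 arrays of the series and were taken by the diet in their labels. CR mice ate AIN-93W-CR, a version with its vitamins and minerals raised to offset the smaller portions, and C mice ate AIN-93W. Diets ran from 9 weeks until 12 months of age. Every mouse fasted for 4 h, then received by gavage either Wy at 160 mg/kg in 0.5% carboxymethyl cellulose or that solvent alone (mock), and was killed 6 h later without food. By the methods of the study, CR mice ate daily portions and C mice ate ad libitum, so that time since the last meal and diet cannot be told apart. Each diet holds 2 matched pairs of a Wy and a mock mouse, 1 pair of high and 1 of low body weight, chosen from the extremes of body weight in the group, with no other replicates. The remaining 8 arrays hold the same design on a medium-fat diet (MF, 25% of energy as fat) and an intermittent diet (INT, weekly turns of MF and 40% restriction).

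Wy binds and activates PPARα, a nuclear receptor that pairs with RXR and switches on genes of fatty acid transport and of mitochondrial and peroxisomal fatty acid oxidation. In the fasted liver the same receptor answers to fatty acids released from fat tissue. Calorie restriction itself alters feeding rhythm, glycogen turnover and growth hormone signalling in the mouse liver. The comparison therefore asks whether the drug moved the same genes by the same amount on top of both diets.

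The 16 arrays correlated with each other at 0.968 to 0.995 after normalisation, which does not measure RNA or array quality. Of the 8 CR and C arrays, the high CR mock array had the lowest median over the genes tested (7.07 against at most 7.21). The hepatocyte genes Alb, Apoa1, Ttr, Apoh and Ahsg were at or above 12.6 log2 on all 8 CR and C arrays. Levels below are log2 intensities as deposited, and a response is the Wy minus mock log2 difference of a pair. Values of 2 mice or pairs are given with high body weight first and low second. A gene was called at a Benjamini-Hochberg adjusted p under 0.05 in limma with the pair as a block. In whole liver, fewer cells of a type and less RNA per cell cannot be told apart.

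Wy had a broad effect in both diets, and most of it was shared. In CR livers 331 genes (2.32%) rose and 137 (0.96%) fell with Wy, in all 3.28% of the 14275 genes tested. In C livers 303 (2.12%) rose and 214 (1.5%) fell, in all 3.62%. The 272 genes called in both diets make up 58.1% of the CR calls and 52.6% of the C calls, and 271 of them went the same way, 192 up and 79 down. The single gene called in opposite directions was Slc1a4. Changes of at least 2-fold numbered 106 rises and 26 falls in CR, and 118 rises and 31 falls in C. These counts lean on each pair: with any 1 CR array and hence its pair left out, 62 to 77 genes were called in CR, and with any 1 C array left out, 5 to 14 in C. Leaving out a C array also left 283 calls in CR. Over all genes, the responses of the 2 CR pairs correlated at 0.456, those of the 2 C pairs at 0.658, and those of a CR and a C pair at 0.536 to 0.624. These correlations are across genes, which are not independent replicates.

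Known PPARα targets were among the highest rises in both diets. The highest rise in either diet was that of the predicted gene Gm15441, which the rule for named genes leaves out and which was added after its values were seen, by 4.55 and 4.81 in the CR pairs and by 5.35 and 5.98 in the C pairs. Acot1, a thioesterase that releases fatty acids from coenzyme A, reached 11.19 and 11.15 in CR Wy livers against 7.92 and 8.08 in CR mock livers, and 11.22 and 11.04 in C Wy livers against 8.13 and 7.80 in C mock livers. Its response was 3.17 in CR and 3.16 in C. Acot5, a peroxisomal member of that family, rose by 2.96 in CR and 3.46 in C. The Acot genes are close copies of each other and their probes may share signal. Among the falls, Ppp1r3c, which targets a phosphatase to glycogen, fell by 2.44 in CR and by 3.36 in C. Map2k6, a kinase of the p38 pathway, fell by 1.70 in CR and by 2.21 in C, and Spata2l fell by 1.36 in CR and by 1.74 in C. Ly6d, a small membrane-anchored protein, rose by 3.27 in CR and was not called in C, where its response was 2.34 (adjusted p = 0.114). B3galt1, a galactosyltransferase, and Efna3, an ephrin, were among the deepest falls in CR at -2.11 and -1.93. Gadd45b, a stress-induced gene, was among the highest rises in C at 3.53 and rose by 2.90 in CR. Ppara itself, the receptor gene, had responses of 0.27 in CR and 0.09 in C, and neither these nor their difference of 0.19 ± 0.21 (SE) was called.

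**Figure D1:**
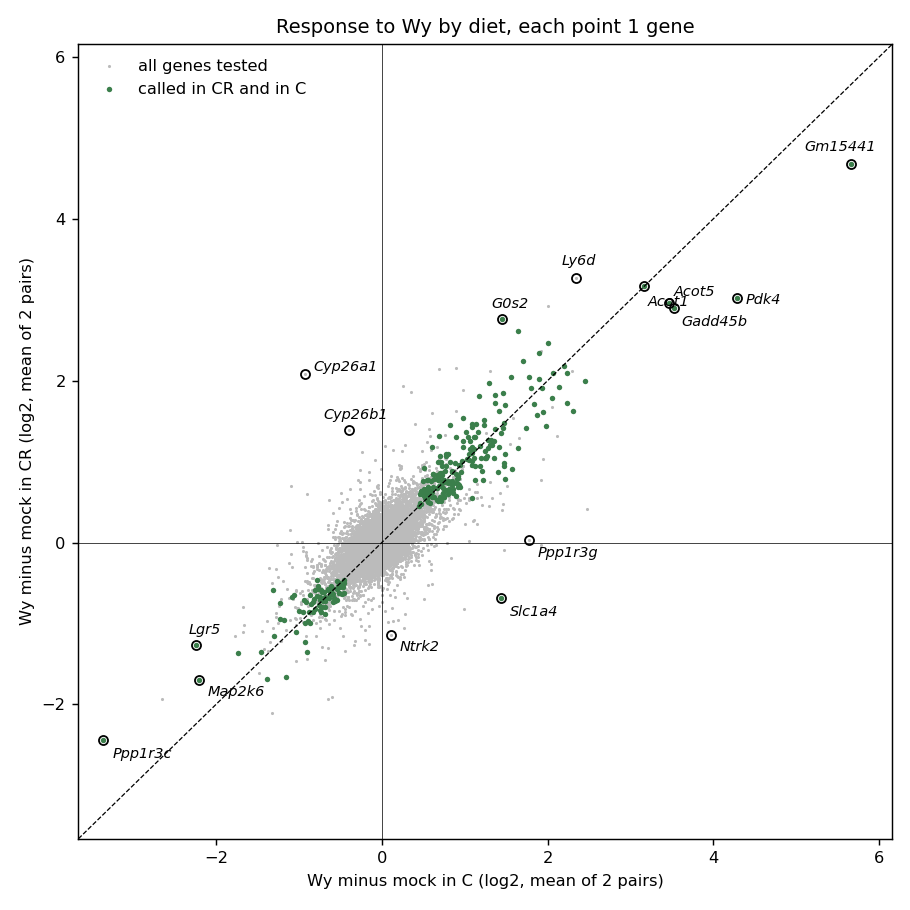
Mean Wy minus mock difference in C (x axis) against that in CR (y axis), both in log2 over 2 pairs, for 14275 genes, with the 272 genes called in both diets in green and the line of equal response dashed. Most called genes lie near the line from Ppp1r3c at the bottom left to Gm15441 at the top right, Slc1a4 lies alone in the lower right among the green points, and Cyp26a1 lies in the upper left.

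Among genes picked on the other diets, responses smaller in CR than in C outnumbered larger ones. A fit of the 8 MF and INT arrays alone called 119 genes that rose at least 2-fold with Wy. Their median response was 1.19 and 1.22 in the CR pairs and 1.26 and 1.42 in the C pairs, and 111 of them were above 0 in all 4 of these pairs. The response was smaller in CR for 79 and larger for 40. The 76 genes picked as falling at least 2-fold had medians of -0.87 and -0.78 in the CR pairs and -0.91 and -0.96 in the C pairs. For 53 of these the response was smaller in CR and for 23 it was larger. Smaller in CR means a response in CR minus that in C below 0 for the rising genes and above 0 for the falling genes. Over all 14275 genes tested the median of that difference was 0.04, with 8545 above 0 and 5730 below. With the values as deposited, the lean of the falling genes therefore has the same sign as that of all genes. Centring the arrays on their medians lowers the difference by the same amount for every gene, as for Acot1 from 0.00682 to -0.0608. That shift is larger than the median of 0.04, so the lean of all genes depends on the scaling. These counts describe 2 pairs a diet, and no test was run on them.

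The direct test of the diet by Wy interaction called 1 gene. This was 0.00701% of the 14275 genes in limma, with 0 higher in CR, and at an unadjusted p under 0.05 there were 314 higher (2.2%) and 165 lower (1.16%), in all 3.36%. The median SE of the difference was 0.168 log2. A difference of at least 1 log2 together with an unadjusted p under 0.05 was seen for 12 genes higher in CR (0.0841%) and 16 lower (0.112%), in all 0.196%. Both CR pairs lay beyond both C pairs for 4739 genes (33.2%), with 21.2% higher and 12% lower, so that lack of overlap between 2 and 2 pairs is common in these data.

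Slc1a4 encodes ASCT1, a sodium-dependent membrane transporter of alanine, serine, cysteine and threonine. Its level was 5.35 and 5.60 in CR Wy livers, against 5.89 and 6.42 in CR mock livers. In C Wy livers it was 7.62 and 7.18, against 6.12 and 5.81 in C mock livers. The mock livers of both diets overlapped and the Wy livers did not. Slc1a4 fell 1.60-fold with Wy in CR (adjusted p = 0.0269) and rose 2.71-fold in C (adjusted p = 0.00218). The difference between the responses was -2.12 ± 0.17 (SE, adjusted p = 0.0206). In the other diets it was higher with Wy in each pair, by 1.18 and 0.89 in MF and by 0.77 and 0.51 in INT. The response in CR minus the mean of MF and INT, which uses the same CR arrays, was -1.52 ± 0.15 (adjusted p = 0.0884). The call needed the pair as a fixed block: the adjusted p was 1 with no replicate block and 0.913 with a random block. It was also lost with the fixed block kept but only the CR and C arrays fitted (adjusted p = 0.104). Arrays of a CR pair did not deviate together (correlation -0.169). It also rests on few arrays: removing 1 array, and with it the pair, gave a difference of -1.98 (adjusted p = 0.136) for the low CR pair, -2.06 (0.465) for the high C pair, -2.18 (0.156) for the low C pair and -2.12 (0.0762) for each INT pair. It stayed called at -2.26 when the high CR pair was removed, and at -2.12 when either MF pair was removed.

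Cyp26a1, the cytochrome P450 that clears retinoic acid, had the next smallest p. Its level was 9.19 and 7.05 in CR Wy livers, against 6.39 and 5.70 in CR mock livers. In C Wy livers it was 4.49 and 4.44, against 5.12 and 5.68 in C mock livers, so the C Wy levels sat just above the floor of 4.32 used for detection. Cyp26a1 rose 4.22-fold with Wy in CR (adjusted p = 0.0143), and its response in C was -0.93 (adjusted p = 0.152). The difference of 3.01 ± 0.43 (SE) did not pass over all genes (adjusted p = 0.783). It passed when a Wy by body weight class term was added (adjusted p = 0.0498). The response was between -1.38 and -0.47 in the MF and INT pairs, and no pair outside CR was above 0.

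Cyp26a1 was 1 of a few retinoid genes that leaned towards a higher response in CR, while most of the list did not. Of 36 tested genes of retinoid metabolism and response, 4 reached an unadjusted p under 0.05 with a higher response in CR and 0 with a lower one (11.1%, against 3.36% of all genes), while the median difference of the list was 0.01. Cyp26b1, a second retinoic acid hydroxylase, was at 8.85 and 7.55 in CR Wy livers against 6.47 and 7.14 in CR mock livers, and at 7.07 and 6.34 in C Wy livers against 6.93 and 7.28 in C mock livers. Most of its difference of 1.79 ± 0.70 came from the high CR pair (2.37, against 0.41 in the low CR pair). Rarb, the retinoic acid receptor β and itself a target of retinoic acid, was at 8.85 and 7.85 in CR Wy livers, 7.68 and 7.36 in CR mock livers, 7.67 and 7.14 in C Wy livers and 7.19 and 7.39 in C mock livers. The Rarb responses were 1.17 and 0.49 in CR and 0.47 and -0.24 in C, so the low CR pair was close to the high C pair. Lrat, which esterifies retinol for storage in stellate cells, was at 9.97 and 9.59 in CR Wy livers against 9.44 and 8.85 in CR mock livers, and at 9.47 and 8.87 in C Wy livers against 9.39 and 9.15 in C mock livers. The differences were 0.71 ± 0.28 for Rarb and 0.73 ± 0.22 for Lrat, each with adjusted p = 1. Stellate cell and matrix markers, which include Lrat, gave 1 higher and 0 lower of 14 and a median difference of 0.10. Their summed linear intensity was 7930 to 8020 in CR Wy livers, 7330 to 8490 in CR mock livers, 7530 to 8590 in C Wy livers and 8230 to 9280 in C mock livers, and the part of these cells in the retinoid values was not tested.

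The promoter windows shown were picked because they hold a match. Of the retinoid genes 2 share a motif that few promoters hold, and 2 genes of the ATF4 list described below, Slc1a4 and Vldlr, share another. A retinoic acid receptor with RXR binds a direct repeat of 2 half-sites with a spacer of 5 bases (DR5). The half-site searched was AGGTCA with A or G allowed as the first base and G or T as the third, on both strands, so every DR5 match also holds 2 matches of the half-site. Cyp26a1 and Rarb each have a DR5 match, beginning at -32 and -53 from the annotated start, and 32 of 32851 RefSeq windows (0.0974%) hold one. Slc1a4 and Vldlr each have a match to an ATF4-type element, TGATGNAA, searched on both strands and beginning at -4 and -200 from the start, which 3.97% of windows hold and which was found in 2 of the 37 named genes that have a window, a share near that of all windows. The windows run from 250 bases before to 50 after the start in GRCm38.p6, written 5′ to 3′ on the strand of the gene with the matches in capitals; for Cyp26a1, Slc1a4 and Vldlr the motif reads on the opposite strand. They lie at chr19:37697558-37697857 (Cyp26a1, plus strand), chr14:16575427-16575726 (Rarb, minus), chr11:20332664-20332963 (Slc1a4, minus) and chr19:27216770-27217069 (Vldlr, plus, the one of its 2 windows with a match).
Cyp26a1: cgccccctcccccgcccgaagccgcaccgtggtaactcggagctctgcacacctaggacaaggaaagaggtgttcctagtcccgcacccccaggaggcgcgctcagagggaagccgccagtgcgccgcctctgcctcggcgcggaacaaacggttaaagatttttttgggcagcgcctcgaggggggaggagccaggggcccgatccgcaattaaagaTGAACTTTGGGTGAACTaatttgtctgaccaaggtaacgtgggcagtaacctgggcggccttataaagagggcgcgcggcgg
Rarb: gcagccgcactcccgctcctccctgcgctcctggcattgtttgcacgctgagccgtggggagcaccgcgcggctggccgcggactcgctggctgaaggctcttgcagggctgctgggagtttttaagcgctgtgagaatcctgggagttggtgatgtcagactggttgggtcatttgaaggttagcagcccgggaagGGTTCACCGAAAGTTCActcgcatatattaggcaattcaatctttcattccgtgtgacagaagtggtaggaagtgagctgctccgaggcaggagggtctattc
Slc1a4: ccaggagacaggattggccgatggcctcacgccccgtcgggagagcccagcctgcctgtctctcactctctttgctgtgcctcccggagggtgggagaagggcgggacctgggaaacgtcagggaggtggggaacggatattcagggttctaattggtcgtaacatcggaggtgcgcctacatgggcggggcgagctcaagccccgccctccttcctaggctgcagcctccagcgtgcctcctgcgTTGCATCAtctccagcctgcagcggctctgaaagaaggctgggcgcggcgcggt
Vldlr: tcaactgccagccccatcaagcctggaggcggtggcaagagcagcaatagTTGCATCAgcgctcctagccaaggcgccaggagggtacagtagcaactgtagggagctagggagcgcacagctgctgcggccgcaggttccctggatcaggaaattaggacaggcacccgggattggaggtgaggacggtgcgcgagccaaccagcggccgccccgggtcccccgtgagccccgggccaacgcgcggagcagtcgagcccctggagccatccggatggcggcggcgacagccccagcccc
A match describes these letters, and binding was not tested. A repeat with a spacer of 1 base (DR1), the form PPARα binds with RXR, was found in 0.222% of all windows and in 0 of the 37 named genes that have a window, of 44 looked up.

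The gap between the diets lay mainly in the Wy livers for some genes and mainly in the mock livers for others, and in some, such as Ppp1r3g and Tmem184a, the diets differed in both. Of the 12 genes of smallest p with a higher response in CR, CR and C differed more among Wy livers in 7 and more among mock livers in 5. Of the 12 with a lower response, it was 6 and 6.

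Il33, an alarmin of the interleukin 1 family, differed mainly in the Wy livers. It was at 6.17 and 6.17 in CR Wy livers, 5.73 and 5.77 in CR mock livers, 5.26 and 5.54 in C Wy livers and 5.67 and 5.77 in C mock livers. Its mock levels overlapped, and the difference in response was 0.74 ± 0.13. Ntrk2, the receptor of brain-derived neurotrophic factor, mirrored it in the opposite direction. It was at 5.25 and 5.31 in CR Wy livers, 6.22 and 6.62 in CR mock livers, 6.58 and 6.79 in C Wy livers and 6.60 and 6.55 in C mock livers. It fell 2.21-fold with Wy in CR (adjusted p = 0.0281), its response in C was 0.11, and the difference was -1.25 ± 0.29 with adjusted p = 1.

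G0s2, an inhibitor of the triglyceride lipase ATGL and a PPAR target, differed mainly in the mock livers. Its level with Wy was 10.87 and 11.12 in CR and 11.07 and 11.20 in C, so the treated livers were alike. The mock livers were at 8.25 and 8.21 in CR, below 9.83 and 9.54 in C. G0s2 rose 6.78-fold in CR and 2.73-fold in C, a difference of 1.31 ± 0.26 (adjusted p = 1). Pdk4, which blocks pyruvate dehydrogenase, showed the same convergence from the other side. It reached 12.75 and 12.72 in CR Wy livers and 12.72 and 12.55 in C Wy livers, while mock livers were at 9.69 and 9.74 in CR and 8.72 and 7.99 in C. It rose by 3.02 in CR and by 4.28 in C, and the difference of -1.26 ± 0.68 was not called.

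Ppp1r3g, a glycogen-targeting subunit of protein phosphatase 1 that is known to follow feeding, was already high in CR without the drug. It was at 10.25 and 9.93 in CR Wy livers and at 10.34 and 9.78 in CR mock livers, against 8.21 and 8.34 in C Wy livers and 6.37 and 6.64 in C mock livers. It rose 3.40-fold in C (adjusted p = 0.0175), its response in CR was 0.03, and the difference was -1.74 ± 0.40 (adjusted p = 1). The C livers with Wy stayed below every CR liver.

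**Figure D2:**
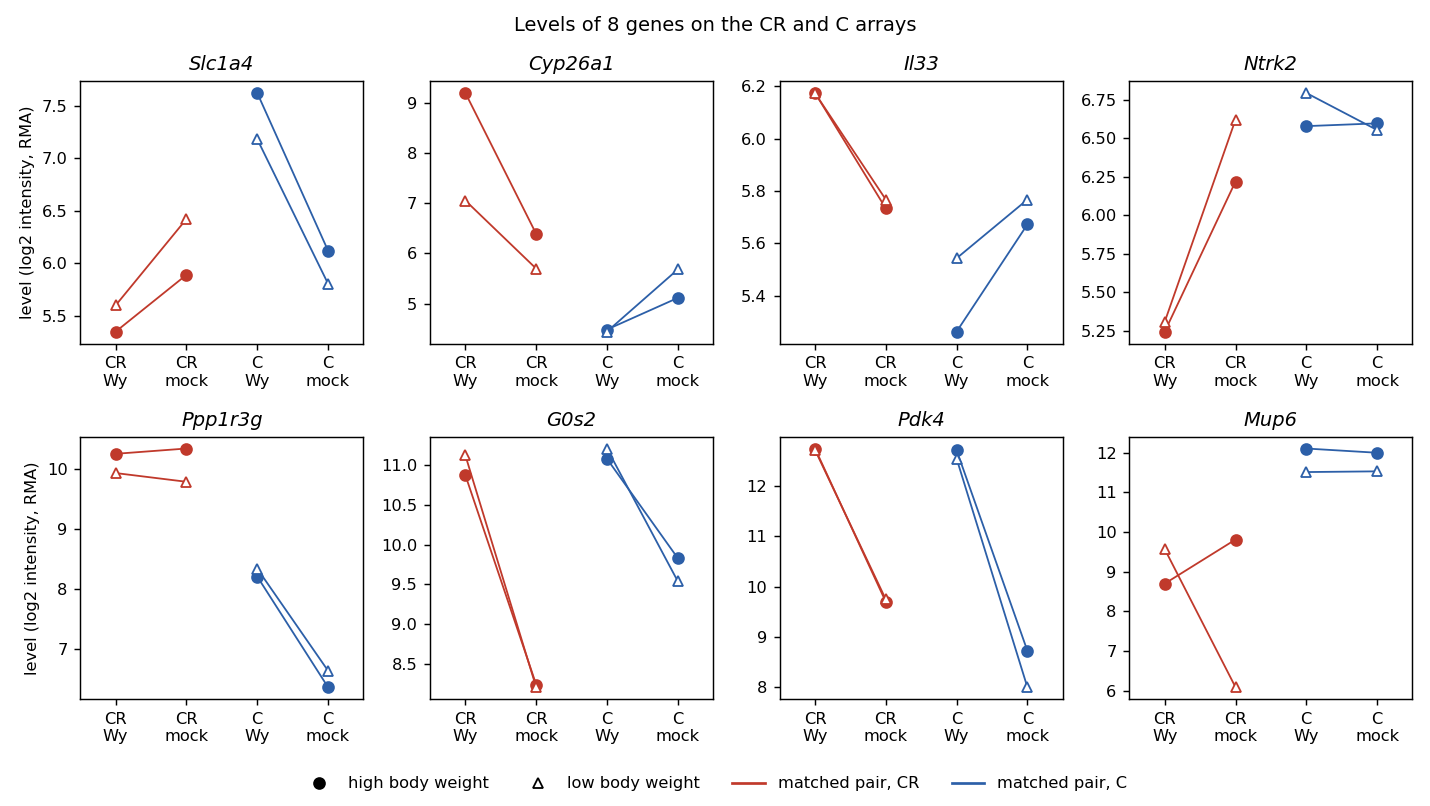
Log2 intensity of 8 genes on the 4 CR and 4 C arrays, by diet and treatment, with lines joining the Wy and mock mouse of a matched pair, filled circles for high and open triangles for low body weight. The y axes differ between panels and do not start at 0. In Slc1a4 and Ntrk2 the diets part in the Wy livers, in G0s2 and Pdk4 they part in the mock livers, and in Mup6 the CR pairs run in opposite directions.

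The other genes of smallest p with a higher response in CR are grouped here by known role. For oxidative defence, Srxn1, the sulfiredoxin that restores peroxiredoxins, was at 9.19 and 9.51 in CR Wy livers, 8.18 and 8.24 in CR mock livers, 8.96 and 8.42 in C Wy livers and 8.94 and 8.16 in C mock livers. It rose 2.20-fold in CR (adjusted p = 0.00875) and its response in C was 0.14. Cbr3, a carbonyl reductase, was at 6.38 and 5.53 in CR Wy livers, 4.82 and 4.85 in CR mock livers, 5.08 and 4.61 in C Wy livers and 5.12 and 5.05 in C mock livers. Its responses in CR, 1.56 and 0.67, differed from each other by about as much as the lower one differed from the C pairs (-0.04 and -0.44). Ahr, the receptor for dioxins and other aryl hydrocarbons, fell in both diets, to 9.24 and 9.00 in CR Wy livers against 9.62 and 9.79 in CR mock livers, and to 8.52 and 8.66 in C Wy livers against 9.83 and 9.98 in C mock livers. Among lipid-binding genes, Vldlr, which takes up triglyceride-rich lipoproteins, was at 7.50 and 7.44 in CR Wy livers, 6.69 and 6.40 in CR mock livers, 6.72 and 6.08 in C Wy livers and 6.59 and 5.77 in C mock livers. Vldlr rose 1.90-fold in CR (adjusted p = 0.00659), and the difference was 0.71 ± 0.15. Fabp7, a fatty acid binding protein best known from brain, rose 1.83-fold in CR (adjusted p = 0.0235) and had a response of -0.15 in C. Of these Fabp7 was lower in CR than in C mock livers, at 7.92 and 8.20 against 9.72 and 8.79.

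Ccl3, a chemokine that draws monocytes, rose in CR by 0.88 and 0.91 in the 2 pairs, against -0.30 and -0.22 in the C pairs, a difference of 1.15 ± 0.24. Arhgap25 had responses of 0.41 and 0.42 in the CR pairs and -0.30 and -0.12 in the C pairs, and was called in neither diet. Olig1, a transcription factor of oligodendrocytes, was at 5.14 and 5.01 in CR Wy livers, 5.10 and 5.04 in CR mock livers, 5.35 and 5.47 in C Wy livers and 6.46 and 6.39 in C mock livers. Olig1 fell 2.03-fold in C (adjusted p = 0.012) and did so in livers whose mock level was above that of CR. Lgr5 is described with the zonation genes below.

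The genes of smallest p with a lower response in CR include some that rose with Wy in C and some that fell with it in CR. Slc34a2, a sodium-phosphate cotransporter, was at 4.79 and 4.75 in CR Wy livers, 4.20 and 4.39 in CR mock livers, 6.17 and 6.04 in C Wy livers and 4.55 and 4.75 in C mock livers. It rose 2.74-fold in C (adjusted p = 0.00568), and 1 of its CR levels was under the detection floor. Insc, an adaptor for spindle orientation, rose 2.74-fold in C, to 8.40 and 8.85 against 7.22 and 7.11 in C mock livers, and was at 7.66 and 7.96 in CR Wy livers against 7.30 and 7.52 in CR mock livers. In MF and INT the responses of Insc lay between 1.37 and 1.88, above the 0.36 and 0.44 of the CR pairs. Tmem184a rose 1.51-fold in C (adjusted p = 0.0493), with responses of -0.34 and -0.35 in CR. Esr1, the oestrogen receptor α, fell 2.11-fold in CR (adjusted p = 0.0137), to 7.62 and 7.51 against 8.54 and 8.74 in CR mock livers, and had a response of -0.20 in C. The Esr1 response was -1.009 and -0.635 in MF and -0.146 and -0.383 in INT. Chic1 fell by 0.52 in CR and had a response of 0.07 in C. It was lower with Wy in MF and INT as well, at -0.294 and -0.373 in MF and -0.519 and -0.698 in INT. Ggt6, G6pd2 and Zfp791 were called in neither diet, with differences of -0.72, -0.57 and -0.71, and G6pd2 is a close copy of another gene whose RNA its probes may share.

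**Figure D3:**
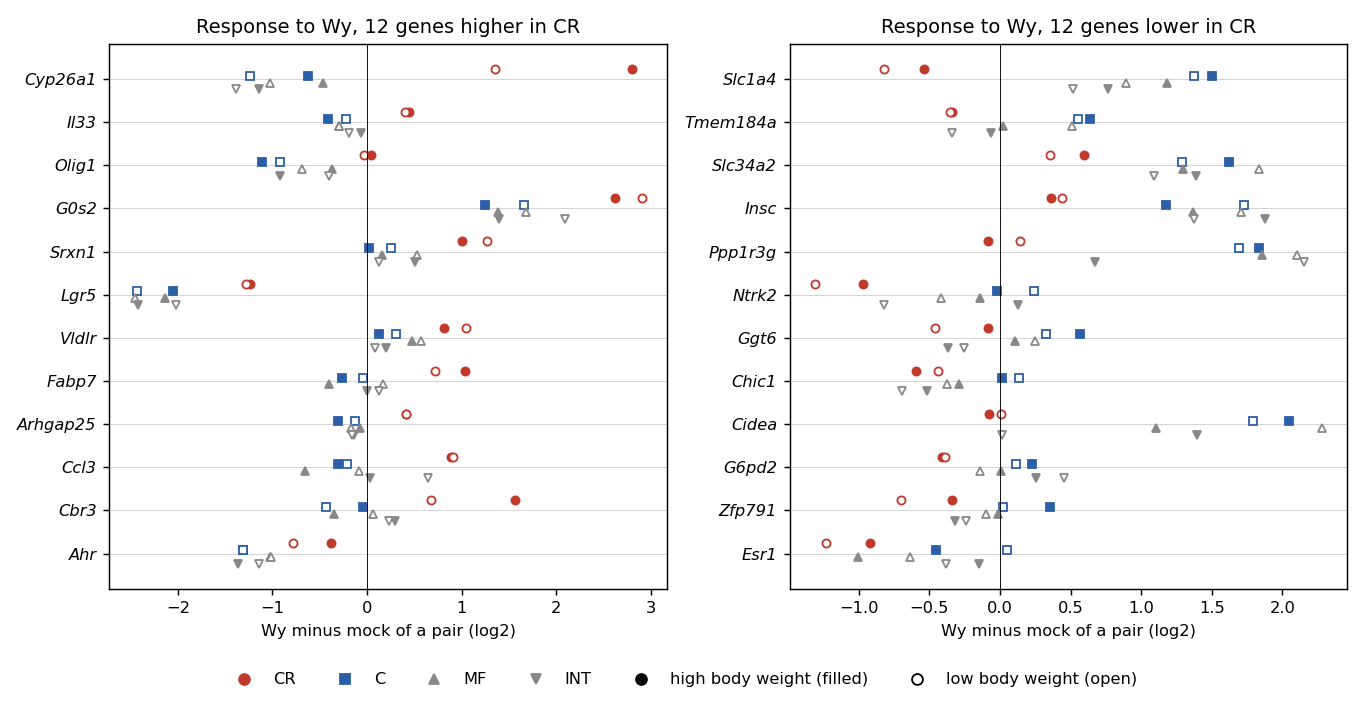
Wy minus mock log2 difference of each of the 8 matched pairs for the 12 genes of smallest p with a higher (left) and the 12 with a lower (right) response in CR, ordered by p, with CR in red, C in blue, and MF and INT in grey. The genes were taken for the distance between red and blue, so that gap is a description. For Cyp26a1 the CR pairs are at 2.80 and 1.35 and all other pairs are below 0, and for Slc1a4 they are at -0.54 and -0.82 and all others above 0.

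Genes of fatty acid oxidation driven by PPARα responded in both diets. Of 23 tested, 13 rose with Wy in CR and 9 in C, against 2.32% and 2.12% of all genes, and none fell in either. The median response was 0.58 and 0.81 in the CR pairs and 0.46 and 0.52 in the C pairs, and the median of the difference was 0.16. In the interaction 1 gene had an unadjusted p under 0.05, higher in CR (4.35%, near the 3.36% of all genes). That gene was Eci2, a peroxisomal enoyl-CoA isomerase, at 11.17 and 11.10 in CR Wy livers against 10.57 and 10.38 in CR mock livers, and at 11.09 and 11.18 in C Wy livers against 10.85 and 10.92 in C mock livers. Its Wy levels overlapped and its mock levels did not. Ehhadh, the peroxisomal bifunctional enzyme, leaned the other way, with rises of 1.17 in CR and 1.64 in C and a difference of -0.47 ± 0.23. Its Wy levels were 13.22 and 13.15 in CR and 13.13 and 13.13 in C, and its mock levels 12.19 and 11.84 in CR and 11.63 and 11.35 in C. Etfdh, which passes electrons from fatty acid oxidation to ubiquinone, rose by 0.76 in CR and 0.50 in C, and Crot, the peroxisomal carnitine octanoyltransferase, rose by 0.72 in CR and had 0.42 in C (adjusted p = 0.092).

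Other PPARα targets gave 17 rises in CR and 16 in C of 33 tested (2.32% and 2.12% of all genes rose), with a median difference of -0.05 and 1 gene higher and 1 lower at an unadjusted p under 0.05. Vnn1, a pantetheinase and a sensitive PPARα target, was at 11.73 and 11.61 in CR Wy livers against 10.32 and 8.72 in CR mock livers, and at 12.40 and 12.02 in C Wy livers against 11.84 and 11.19 in C mock livers. It rose by 2.15 in CR (adjusted p = 0.0188) and had 0.69 in C, a difference of 1.46 ± 0.49, and the low CR mock liver was the lowest of all 8. Ucp3, a mitochondrial carrier, was at 4.54 and 4.68 in CR Wy livers against 4.34 and 4.35 in CR mock livers, and at 5.78 and 5.16 in C Wy livers against 4.40 and 4.34 in C mock livers. It rose 2.14-fold in C (adjusted p = 0.0231), and all 4 mock levels lay close to the detection floor. Creb3l3, a liver transcription factor of lipid metabolism, rose by 0.62 in CR and had 0.29 in C. Fabp4, a fatty acid binding protein of adipocytes and macrophages, had responses of -0.48 and 0.51 in CR and 0.94 and 1.16 in C, and of 1.26 to 3.22 in MF and INT.

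**Figure D4:**
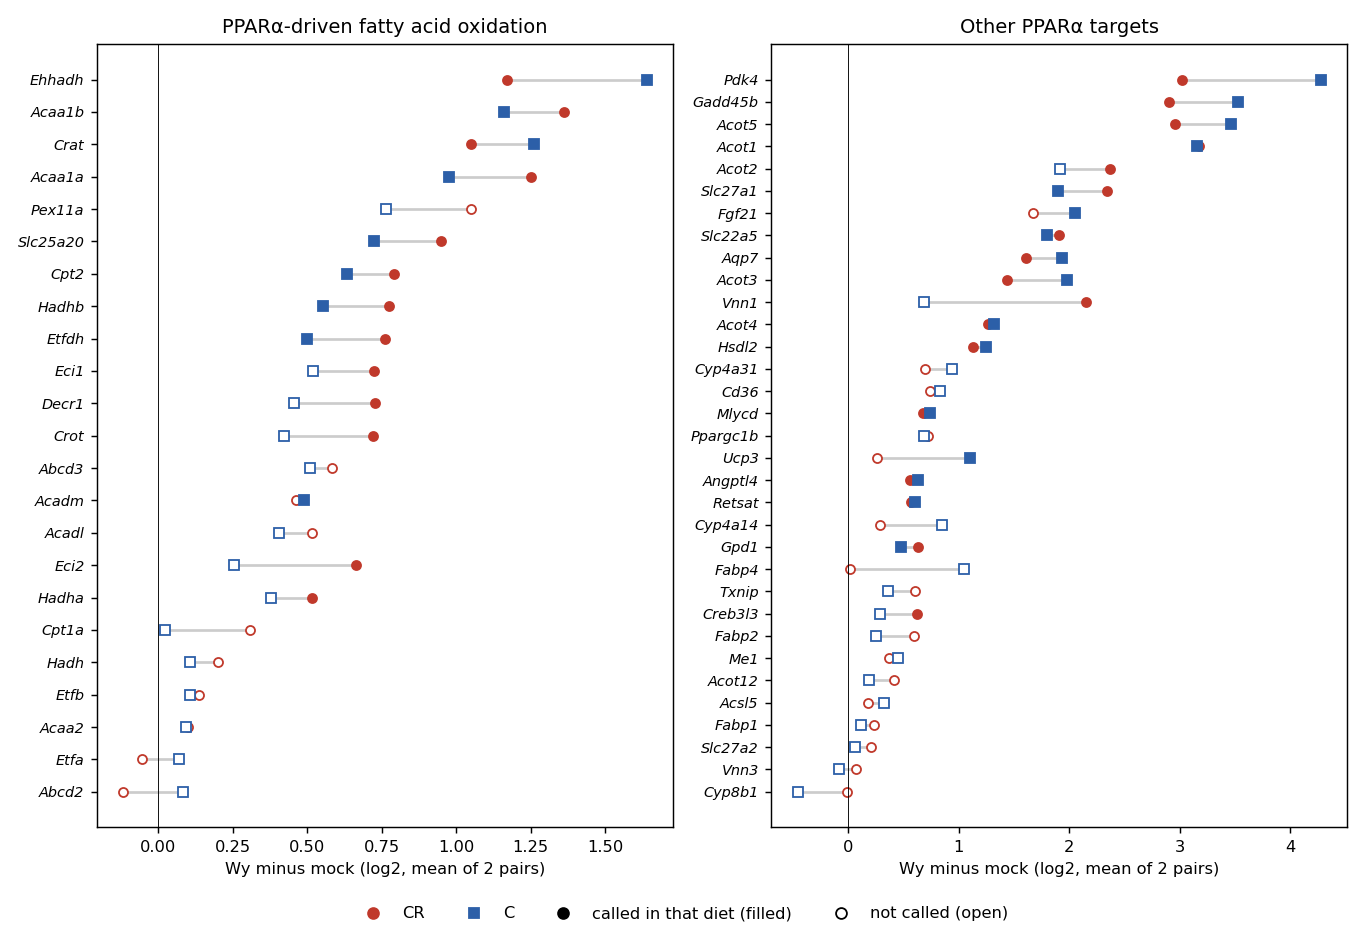
Mean Wy minus mock log2 difference in CR (red circles) and C (blue squares) for each tested gene of the 2 PPARα lists, with filled symbols for genes called in that diet and a grey line joining both diets. Most symbols lie to the right of 0 in both diets. Pdk4 at 3.02 in CR and 4.28 in C heads the right panel, and Vnn1, at 2.15 in CR and 0.69 in C, has one of the longer lines.

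Lipid droplet genes were split in direction. Of 26 tested, 9 rose with Wy in CR and 9 in C, against 2.32% and 2.12% of all genes. In the interaction 3 were higher and 2 lower at an unadjusted p under 0.05 (19.2%, against 3.36% of all genes), with a median difference of 0.01. Besides G0s2, the higher ones were Lipe, the hormone-sensitive lipase, and Fitm1, a protein of droplet formation. Lipe rose by 1.00 in CR (adjusted p = 0.00859), to 9.04 and 8.96 against 8.14 and 7.86 in CR mock livers, and was at 9.28 and 9.35 in C Wy livers against 8.95 and 8.62 in C mock livers. Fitm1 rose by 0.97 in CR and was lower there than in C on every array, at 9.34 and 8.90 with Wy and 8.38 and 7.92 with mock, against 11.20 and 10.46 and then 10.63 and 10.00 in C. The lower ones were Pnpla3, a lipase of the droplet surface with responses of -0.27 and -0.29 in CR and 0.03 and 0.73 in C, and Cidea, which enlarges droplets. Cidea was at 4.17 and 4.37 in CR Wy livers, 4.25 and 4.36 in CR mock livers, 9.86 and 6.36 in C Wy livers and 7.81 and 4.57 in C mock livers. It rose 3.79-fold in C (adjusted p = 0.0229), while 2 of its 4 CR levels were under the floor and the others just above it, so a response in CR was not measurable.

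In glycogen metabolism, 2 of 19 genes were higher and 1 lower at an unadjusted p under 0.05 (15.8%, against 3.36% of all genes). The lower one was Ppp1r3g. Ppp1r3c, the related subunit with the deepest fall, was at 4.57 and 4.28 in CR Wy livers, 6.59 and 7.15 in CR mock livers, 4.78 and 4.90 in C Wy livers and 8.70 and 7.71 in C mock livers. Its mock level was lower in CR and its Wy level close to the floor in both diets, and the difference was 0.92 ± 0.37. Slc37a4, the glucose-6-phosphate transporter, fell by 0.59 in C (adjusted p = 0.0184), to 10.99 and 11.33 against 11.65 and 11.85 in C mock livers, and had -0.26 in CR. The differences of Ppp1r3g and Ppp1r3c had opposite signs, and neither passed over all genes.

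Slc1a4 belongs to the 38 genes tested of ATF4 and the integrated stress response. Of these, 2 were higher and 3 lower at an unadjusted p under 0.05 (13.2%, against 3.36% of all genes). The median difference of the list was -0.08. Cth, which makes cysteine from cystathionine, fell by 1.06 in CR (adjusted p = 0.0129), to 10.92 and 10.61 against 11.67 and 11.99 in CR mock livers, and was at 10.66 and 10.94 in C Wy livers against 11.29 and 11.31 in C mock livers. Chac1, which degrades glutathione, fell by 1.15 in CR (adjusted p = 0.0285), to 6.14 and 5.95 against 7.17 and 7.22 in CR mock livers, and was at 6.52 and 6.98 in C Wy livers against 7.33 and 7.09 in C mock livers. Both had negative responses in C as well, -0.50 and -0.46, unlike Slc1a4. The higher ones were Vldlr and Slc7a1. Slc7a1, a transporter of arginine and lysine, had responses of 0.35 and 0.30 in CR and -0.09 and -0.14 in C. Among 30 amino acid transporters, 1 was higher and 1 lower (6.67%, against 3.36% of all genes) and these were Slc7a1 and Slc1a4. The median difference of that list was 0.06. With Wy, 5 of its genes fell in CR and 4 in C, against 0.96% and 1.5% of all genes.

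For NRF2 targets and glutathione genes, 2 of 24 were higher at an unadjusted p under 0.05 and 0 lower (8.33%, against 3.36% of all). They were Srxn1 and Cbr3. The difference was above 0 for 19 of the 24, against 8545 of the 14275 genes tested, and its median was 0.20. The median response was 0.39 and 0.03 in the CR pairs and -0.04 and 0.04 in the C pairs, so the low CR pair lay among the C pairs. Heat shock (16 genes), the unfolded protein response (24) and CAR and PXR targets (20) had 0 genes at that p, and limma called 0 of them.

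Among zonation markers of the hepatocytes around the central vein, Lgr5 had the smallest p. Lgr5, a receptor for R-spondins, fell in both diets, with a response of -1.26 in CR and -2.24 in C. It was at 6.13 and 6.13 in CR Wy livers, 7.37 and 7.41 in CR mock livers, 5.31 and 5.89 in C Wy livers and 7.35 and 8.33 in C mock livers, and the difference was 0.98 ± 0.20. Wnt2, a ligand made by endothelial cells, was at 6.46 and 6.45 in CR Wy livers, 5.97 and 6.12 in CR mock livers, 6.12 and 6.08 in C Wy livers and 6.38 and 6.58 in C mock livers. Rspo3, the endothelial R-spondin, was at 7.14 and 7.25 in CR Wy livers, 7.03 and 6.95 in CR mock livers, 6.92 and 6.92 in C Wy livers and 6.94 and 7.11 in C mock livers. Neither Wnt2 nor Rspo3 was called in a diet, and their differences of 0.79 ± 0.20 and 0.32 ± 0.14 did not pass (adjusted p = 1 each). Wnt2 and Rspo3 were the 2 of 14 endothelial markers at an unadjusted p under 0.05, and the list's median difference was 0.03. Of 17 pericentral markers 1 was higher and 2 lower at that p (17.6%, against 3.36% of all genes). The lower ones were Slc13a3, a transporter of dicarboxylates that fell by 0.74 in CR, and Lect2, a secreted protein, at -0.42 in CR. Of 13 periportal markers 0 reached it.

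Growth hormone and IGF1 signalling had 0 genes higher and 3 of 19 lower at an unadjusted p under 0.05 (15.8%). Over all genes that share was 3.36%. Socs2, a brake on growth hormone signalling that growth hormone induces, fell by 1.25 in CR (adjusted p = 0.0381), to 7.85 and 9.02 against 9.22 and 10.15 in CR mock livers. In C it was at 8.57 and 8.74 with Wy and at 8.81 and 8.81 with mock. Cux2, a transcription factor of female-type liver, was at 5.14 and 5.02 in CR Wy livers, 5.55 and 6.52 in CR mock livers, 4.79 and 4.87 in C Wy livers and 4.62 and 4.64 in C mock livers. Its difference of -1.15 ± 0.32 rested on the 1 high CR mock value of the low body weight pair (-1.50 in that pair, -0.41 in the other). Igfbp3, a carrier of IGF1, had responses of -0.42 and -0.56 in CR and -0.24 and 0.41 in C.

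The same low CR mock liver was lowest in Cyp4a12a and Mup6, genes of male-type liver. Of the 25 male-biased genes tested, 0 were higher and 1 lower at an unadjusted p under 0.05 (4%, against 3.36% of all). The difference was above 0 for 14 of them and below 0 for 11. The median response of the 25 male-biased genes tested was -0.58 in the high and 0.27 in the low CR pair, against -0.13 and -0.26 in the C pairs. Cyp4a12a, a male-specific fatty acid hydroxylase, was at 7.59 and 8.07 in CR Wy livers and at 7.27 and 4.66 in CR mock livers, against 12.43 and 12.20 in C Wy livers and 11.94 and 11.99 in C mock livers. Mup6, a major urinary protein, was at 8.70 and 9.57 in CR Wy livers and at 9.81 and 6.09 in CR mock livers, against 12.11 and 11.51 in C Wy livers and 12.00 and 11.53 in C mock livers. Both were lower in CR than in C on every array, and in both the low CR mock liver was the lowest. With either array of the high CR pair left out, the interaction called 5 genes: Slc1a4 (-2.26), Mup6 (3.44), Cyp4a12a (3.06), its near copy Cyp4a12b (3.29) and the sulfotransferase Sult2a8 (2.31). With both CR pairs the differences of the last 4 were 1.14 ± 1.15, 1.52 ± 0.79, 1.67 ± 0.83 and 0.14 ± 1.09, none of them called. Mup6, Cyp4a12a and Sult2a8 were named after their values were seen. Cyp4a12a and Cyp4a12b, and the Mup genes, are close copies whose probes may share signal.

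Across the 32 pathway lists, the share of genes at an unadjusted p under 0.05 ran from 0% to 19.2%, on lists of 13 to 38 genes. Acute phase genes (29) and peroxisome biogenesis genes (24) had 0. With Wy, 6 of the peroxisome genes rose in each diet, against 2.32% of all genes in CR and 2.12% in C. Cell cycle genes had 1 of 22, Rrm2, with 18 of the 22 differences above 0 (8545 of 14275 over all genes) and a median of 0.29. Their median response was 0.42 and -0.11 in the CR pairs and -0.28 and 0.05 in the C pairs, so the low CR pair lay among the C pairs. Core clock genes had 1 higher (Hlf) and 1 lower (Cry2) of 20. Shares on lists this short move by several percent with 1 gene.

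**Figure D5:**
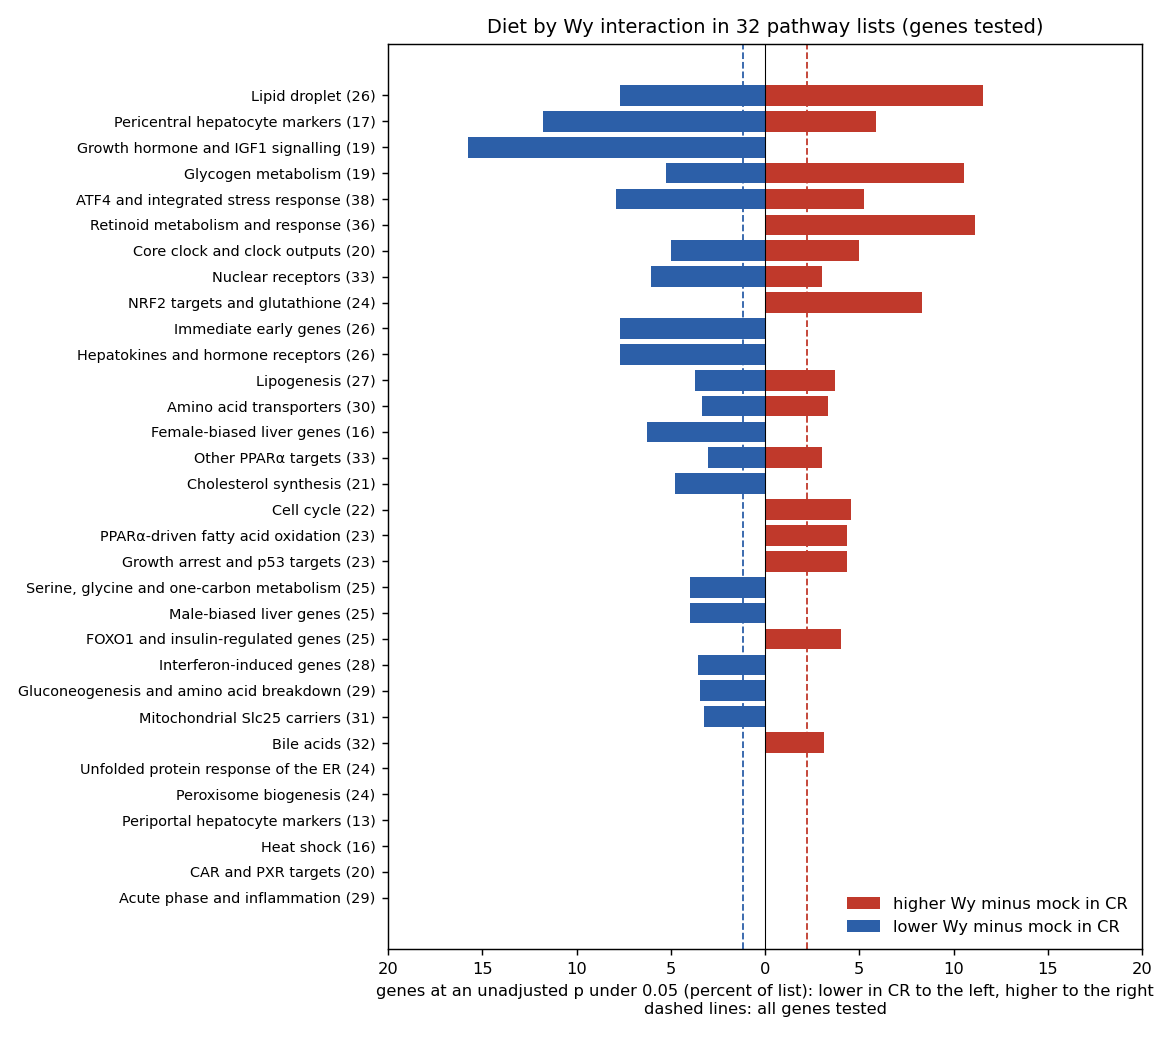
Share of the genes of each of 32 pathway lists (number tested in brackets) at an unadjusted p under 0.05 in the diet by Wy interaction, in percent, with genes lower in CR to the left of 0 and genes higher in CR to the right. The dashed lines give the shares over all 14275 genes, 1.16% lower and 2.2% higher. Retinoid genes extend only to the right and growth hormone genes only to the left.

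Immune cell markers were mixed. All 8 tested B and plasma cell markers had a difference above 0 (8545 of the 14275 genes tested did), with a median of 0.46, and 2 of them, Cd79b (0.61 ± 0.20) and Cd79a (0.93 ± 0.39), had an unadjusted p under 0.05. Their summed linear intensity was 281 to 289 in CR Wy livers, 247 to 339 in CR mock livers, 298 to 364 in C Wy livers and 320 to 726 in C mock livers, so 1 C mock liver was above all others. Their median response was 0.20 and -0.10 in the CR pairs and -0.49 and -0.08 in the C pairs, so the low pairs were close. These markers were weakly detected, and 2 of the 8 were under the detection floor on at least 1 CR or C array. Monocyte-derived macrophage markers had 11 of 12 differences above 0 (median 0.35) and 0 at that p, and their sum was 1840 to 2040 in CR Wy livers, 1470 to 1940 in CR mock livers, 1690 to 2500 in C Wy livers and 1800 to 3350 in C mock livers. The macrophage medians were 0.07 and 0.01 in the CR pairs and -0.31 and 0.02 in the C pairs. Neutrophil markers had 4 of 5 differences below 0 and 0 genes at that p. T and NK cell markers had 1 gene lower and 0 higher of 8 at that p (12.5%, against 3.36% of all genes). Of the 8 differences, however, 6 were above 0, with a median of 0.18. MHC class II genes had 1 lower and 0 higher of 7 at that p (14.3%). Of the 7 differences, 5 were above 0, with a median of 0.09. The part of these cells in the values of Ccl3 and Il33 was not tested. Hepatocyte markers had a median difference of -0.09 and 0 of 10 at that p.

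The responses most like that of Slc1a4 over the 8 pairs, by Pearson correlation among 1592 genes with a spread of at least 0.3 log2, were those of Ntrk2 (0.899), Zfp791, Slc34a2, Adamtsl3, Sik1 and Cux2 (0.829). Those most like Cyp26a1 were Chaf1b (0.920), Ahr, Lgr5, Peg3, Rarb (0.881) and S1pr3 (0.877). Peg3, an imprinted zinc finger gene, rose by 1.60 in CR (adjusted p = 0.0138) and S1pr3, a receptor for sphingosine 1-phosphate, by 0.73 (adjusted p = 0.0194), and neither was called in C, at 0.60 and 0.09. These correlations are descriptions over 8 pairs that share 4 diets.

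Set against the mean of the MF and INT pairs, the CR response differed at an unadjusted p under 0.05 for 1050 genes (7.36%), 747 higher (5.23%) and 303 lower (2.12%). The C response differed from that mean for 424 (2.97%), 257 higher (1.8%) and 167 lower (1.17%). In limma 0 genes were called in either comparison. Both share the spread and the MF and INT arrays, and the first shares its CR arrays with the main comparison. For Lgr5 the response minus the MF and INT mean was 1.00 in CR and 0.01 in C, and for G0s2 it was 1.12 in CR and -0.19 in C. Insc gave -1.18 in CR and -0.13 in C. For these 3 genes the C response was near that of MF and INT. INT mice were killed in a week of ad libitum feeding. For Tmem184a it was the C response that lay further off, at 0.56 against -0.38 in CR, and so it was for Chic1, at 0.54 against -0.04.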

How the data were processed

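RNA of 16 livers was hybridised to 1 array each. The authors deposited log2 intensities made with RMA; the sources used here give no version. RMA quantile-normalises all arrays together, so a shift common to most genes would not be seen. Of 35556 transcript clusters, 21218 have 1 gene in GEO's platform annotation, 1881 have several and 12457 are not named. The brightest cluster stood for each of 1386 genes with several. Genes above an intensity of 20 (log2 4.32) on at least 5 arrays were tested, 14275 of 18820.

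limma 3.58.1 in R 4.3.3 was fitted to all 16 arrays with the matched pair as a block and a Wy effect per diet, which leaves 4 residual degrees of freedom. The pairs come from the labels, which matched mice by body weight within a diet. Deviations within pairs correlated at -0.169 in CR, 0.531 in C, 0.564 in MF and 0.0839 in INT. P-values were adjusted by Benjamini-Hochberg over all genes tested, and the fit was tested on simulated data. With 2 pairs against 2, an exact permutation test cannot give a p under 0.333, so none is reported. The number of arrays limits the precision. Named genes are every called gene, the 12 of smallest p in each direction, up to 4 of each list described, the 4 highest rises and 4 deepest falls per diet, Ppara, and 6 genes each most like Slc1a4 and Cyp26a1. Predicted gene models were left out. The 46 gene lists (807 genes tested) and the members were chosen with earlier results of these data known. Promoter windows are RefSeq's. Alternatives varied the block, the arrays, the scaling, the filter and the choice of cluster.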

Additional observations from a re-analysis of the deposited data

Results flagged for a closer look

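Slc1a4 was the only gene of 14275 whose Wy response differed between CR and C in the test of the difference itself, by -2.12 log2 (limma, adjusted p = 0.0206, 1 gene called and 479 at an unadjusted p under 0.05). Its response was below 0 in 2 of 2 CR pairs and above 0 in 2 of 2 C pairs. Both CR pairs lay beyond both C pairs for 33.2% of all genes tested. The call of Slc1a4 was lost without the pair as a fixed block, and with only the CR and C arrays fitted.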

How the results depend on the processing

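The interaction of diet and Wy called 1 gene, Slc1a4, and the same gene when the arrays were centred on their medians, with trended and robust variances, with no filter, with an intensity above 20 required on all arrays, and with the mean of a gene's clusters. It called 0 genes with no replicate block, with a random replicate block, with only the CR and C arrays (adjusted p of Slc1a4 0.104), on the first plate only (0.0762) and with the CR pairs crossed, and 2 with the replicate block and a Wy by body weight class term (1 higher, Cyp26a1, and 1 lower). With 1 replicate left out it called 0 to 5 genes, the Wy response in CR called 62 to 283 against 468 (leaving out CR or C arrays) and that in C 5 to 486 against 517, CR minus the mean of MF and INT called 0 to 4 and C minus that mean 0 to 1. CR minus the mean of MF and INT also called 2 with the body weight class term (1 higher, 1 lower) and 1 on the first plate only. Leaving out an array removes its pair, so fewer samples remain and the lone pair is assumed to vary like the other diets; the cause of the other changes was not tested. The crossed pairs and the removal of MF or INT arrays were chosen after seeing the data. The first plate setting drops the high INT pair, whose array names carry another plate code, and is the same fit as leaving out that pair. It cannot show a plate effect on CR minus C, because the CR and C arrays share a plate code.

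The counts of Wy calls stayed within 1.5 times the reported ones under every alternative that kept all CR and C arrays, the replicate block included, and centring moved the split in CR to 306 rises and 163 falls and in C to 350 and 164. Of 2046 values of 76 named genes under the alternatives (the male-type genes called without the high CR pair were not among them), 2021 kept their direction and side of the threshold, 15 lost the call (all of Slc1a4), 1 gained it (Cyp26a1) and 9 turned. This tally is a weak check, because only Slc1a4 had a call to lose. Changing the block, the variances, the filter or the MF and INT arrays leaves a difference as it is, so its direction could not turn. Leaving out either array of a pair gives the same fit, which the tally counts for each array. The difference of Acot1 was -0.0608 after centring, -0.0652 without the high C pair and -0.0901 without the high CR pair. Without the low CR pair that of Gadd45b was 0.713 and that of Ppara -0.0984, and over all single replicates left out they ran from -1.98 to 0.713 and from -0.0984 to 0.471. None of these differences was called. Genes near the intensity floor have only a bound on their response. Centring lowers every difference between CR and C by the same amount, which is more than the median of 0.04 over all genes. Counts of differences above 0, and splits into higher and lower, therefore depend on the scaling.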

Other observations

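Other genes with an unadjusted p under 0.05 in the interaction belong to lists not described above. Trp53inp1, a p53-induced gene, fell by 1.32 in C (adjusted p = 0.0129) and had a response of -0.50 in CR, a difference of 0.82 ± 0.26. Aass, which starts lysine breakdown, had a difference of -0.59, and Slc25a25, a mitochondrial ATP-Mg carrier, one of -0.54. The immediate early genes Nr4a1 and Ier2 had differences of -0.53 and -0.50, and Zbp1, an interferon-induced sensor of nucleic acids, one of -0.83. Each had an adjusted p of 1 in limma. Kupffer cell markers had 0 of 13 genes at that p and a median difference of 0.13.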
